A study of Homo sapiens with 9 samples.

Results

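The genes described here are FASN, SCD, ACACA, ACLY, SREBF1, SLC25A1, THRSP, ELOVL1, ELOVL6 and ACSL1, which make, extend, desaturate or activate long-chain fatty acids or regulate that pathway. Every probe that the array's platform annotation assigns to 1 of these 10 genes was taken, which gave 14 of 35328 probes, and all 14 were among the 28259 tested. FASN, SCD, ACLY and SLC25A1 had 2 probes each, which are called the brighter and the dimmer by their mean intensity. The samples were SKbr3 cells, an established human breast cancer line with amplified HER2, given 1 of 3 siRNAs against TRMT12 or a control siRNA. TRMT12 encodes an enzyme of wybutosine synthesis on phenylalanine transfer RNA. Each of the 9 dual-colour arrays set a TRMT12 siRNA sample against a control siRNA sample, with 3 arrays for each siRNA, and array 3 of each had the dyes exchanged. The series text names the same control siRNA for all comparisons while the labels number the controls like the siRNAs, so whether control RNA was shared is not settled. Separate cultures are not mentioned for the 3 hybridisations of an siRNA, so the p-values with 1 siRNA or between siRNAs rest on the spread of hybridisations and may be technical. In such bulk RNA, fewer cells of a kind and less RNA per cell cannot be told apart.

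De novo fatty acid synthesis begins with citrate, which SLC25A1 carries out of the mitochondrion and ACLY splits to give cytosolic acetyl-CoA. ACACA carboxylates acetyl-CoA to malonyl-CoA, and FASN, a single large multifunctional enzyme, builds palmitate from both. ELOVL6 extends palmitate to stearate, SCD puts a double bond into the product, ELOVL1 makes very long chains, and ACSL1 joins free fatty acids to coenzyme A. SREBF1 encodes the sterol regulatory element-binding protein that drives transcription of many enzymes of fatty acid synthesis, and THRSP encodes a small protein that accompanies lipogenesis. HER2-amplified breast cancer cells are known for abundant FASN.

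The sequences upstream of SREBF1, SLC25A1 and ELOVL1 are shown because these genes were lower on all 9 arrays, and that of ACLY because its direction differed between the siRNAs. Each line gives the 250 bases before the start of transcription, 5′ to 3′ on the strand of the gene, from RefSeq on GRCh38.p14. Capitals mark matches on either strand to CCAAT, the letters of the CCAAT box, and to GGGCGG, those of the GC box that SP1 binds, and neighbouring matches can overlap.
SREBF1, chr17:17836987-17837236, minus strand: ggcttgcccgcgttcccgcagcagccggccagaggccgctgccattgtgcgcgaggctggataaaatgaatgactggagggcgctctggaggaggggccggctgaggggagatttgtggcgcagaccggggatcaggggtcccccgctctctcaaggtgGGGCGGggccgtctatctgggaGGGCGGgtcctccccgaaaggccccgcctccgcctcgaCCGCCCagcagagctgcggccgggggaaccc
SLC25A1, chr22:19178737-19178986, minus strand: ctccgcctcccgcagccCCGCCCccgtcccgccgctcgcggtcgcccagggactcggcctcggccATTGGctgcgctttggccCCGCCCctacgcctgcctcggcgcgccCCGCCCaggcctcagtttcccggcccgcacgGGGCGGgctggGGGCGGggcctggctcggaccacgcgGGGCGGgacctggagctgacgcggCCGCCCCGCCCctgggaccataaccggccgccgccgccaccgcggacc
ELOVL1, chr1:43368012-43368261, minus strand: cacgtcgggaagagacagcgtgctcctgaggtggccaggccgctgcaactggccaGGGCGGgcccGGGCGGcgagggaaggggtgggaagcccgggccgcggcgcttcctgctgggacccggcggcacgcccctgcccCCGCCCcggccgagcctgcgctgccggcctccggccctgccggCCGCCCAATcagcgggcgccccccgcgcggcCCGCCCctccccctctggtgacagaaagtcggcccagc
ACLY, chr17:41919023-41919272, minus strand: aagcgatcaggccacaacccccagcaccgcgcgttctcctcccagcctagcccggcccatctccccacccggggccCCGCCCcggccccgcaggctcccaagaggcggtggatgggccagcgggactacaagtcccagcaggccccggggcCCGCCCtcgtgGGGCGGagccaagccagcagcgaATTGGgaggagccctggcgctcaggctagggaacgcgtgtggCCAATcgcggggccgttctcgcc
The same search was run for the classical sterol regulatory element, with 1 position left free, and for CACGTG, an E-box. RefSeq entries were matched for 9 of the 10 genes, all but FASN, with 5 listed starts for ACSL1, 3 for ACACA and 2 for ACLY. None of these starts held the sterol regulatory element or CACGTG in the 250 bases, against 0.125% and 6.34% of 35116 promoters in the same table. At such low shares, absence from so few starts says little about these genes. Sites with other letters or further from the start were not searched. The CCAAT letters, held by 32.0% of all promoters, stood once upstream of SLC25A1 and of ELOVL1 and on both strands of the first ACLY start. The GC box letters, held by 42.6%, matched 3 times upstream of SREBF1, 8 times upstream of SLC25A1 and 5 times upstream of ELOVL1. Starts of other members held these letters too. ACSL1 start 1 had 6 GC box matches, and SCD and THRSP had 2 CCAAT matches each, while ACSL1 starts 2, 4 and 5 held neither. The matches were therefore not particular to the genes that were lower. A match is a description of these letters and not evidence of binding.

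TRMT12 messenger RNA was at 15.1% to 19.6% of control on the 9 arrays, so the knockdown was present with each siRNA. All 9 markers of luminal or HER2-amplified epithelium had signal in both channels on every array, against 71.8% of all named genes, as did 2 of 7 adipocyte markers, PLIN1 and PLIN4 but not ADIPOQ, LEP, LPL, CIDEA or FABP4, and 5 of 10 markers of stromal and blood cells. The arrays' median signals were 273.2 to 518.9 for knockdown and 204.55 to 538.8 for control. Of the luminal markers, GATA3 was called lower with all 3 siRNAs, at log2 ratios of -0.53 with each, and FOXA1 with siRNA 1 and 2 (-0.25 and -0.62, and -0.09 with siRNA 3). Both were lower on all 9 arrays, and their part in the results below was not tested.

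Across siRNAs the mean was below control at 11 of the 14 probes and above it at the dimmer SCD probe, THRSP and ACSL1. The log2 ratio of knockdown over control, normalised within each array, had a median of -0.21 over the 14 probes and of 0.0005 over all probes tested. The medians with siRNA 1, 2 and 3 were -0.28, -0.31 and -0.10 over the 14 probes. FASN at its dimmer probe, SREBF1, both SLC25A1 probes and ELOVL1 were lower on all 9 arrays. These are 5 of the 13 member probes with a ratio on every array, and 7.6% of all such probes were lower on all 9. The dimmer SCD probe and ACSL1 were higher on all 9 arrays, as were 6.94% of all such probes.

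Called here means a Benjamini-Hochberg adjusted p under 0.05 in limma over all tested probes. Across siRNAs, with 1 dye-balanced value for each siRNA, none of the 14 probes was called, and 0.00354% of all tested probes were, which is TRMT12 alone (adjusted p = 0.00999, and 0.0566 without array 3 of siRNA 2). At an unadjusted p under 0.05 there were 7 of 14, of which 6 were lower, where 23.4% of all tested probes passed and 11.6% passed as lower. With siRNA 1, 7 of the 14 probes were called lower and 1 higher, where 11.3% of all tested probes were called lower and 11.6% higher. With siRNA 2, 8 were called lower and 0 higher, where 9.73% and 10.5% of all were. With siRNA 3, 5 were called lower and 4 higher, where 10.1% and 9.9% of all were. With each array centred on its median instead, the 6 calls were 5 lower and 1 higher, and 3331 of all tested probes were called with siRNA 3 in place of 5656. The 4 probes called lower with each of the 3 siRNAs, against 2.58% of all tested probes, were the dimmer FASN probe, both SLC25A1 probes and ELOVL1. After median centring the dimmer FASN probe alone of these 4 kept its call with siRNA 2. None was called higher with each, against 3.23% of all.

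**Figure D1:**
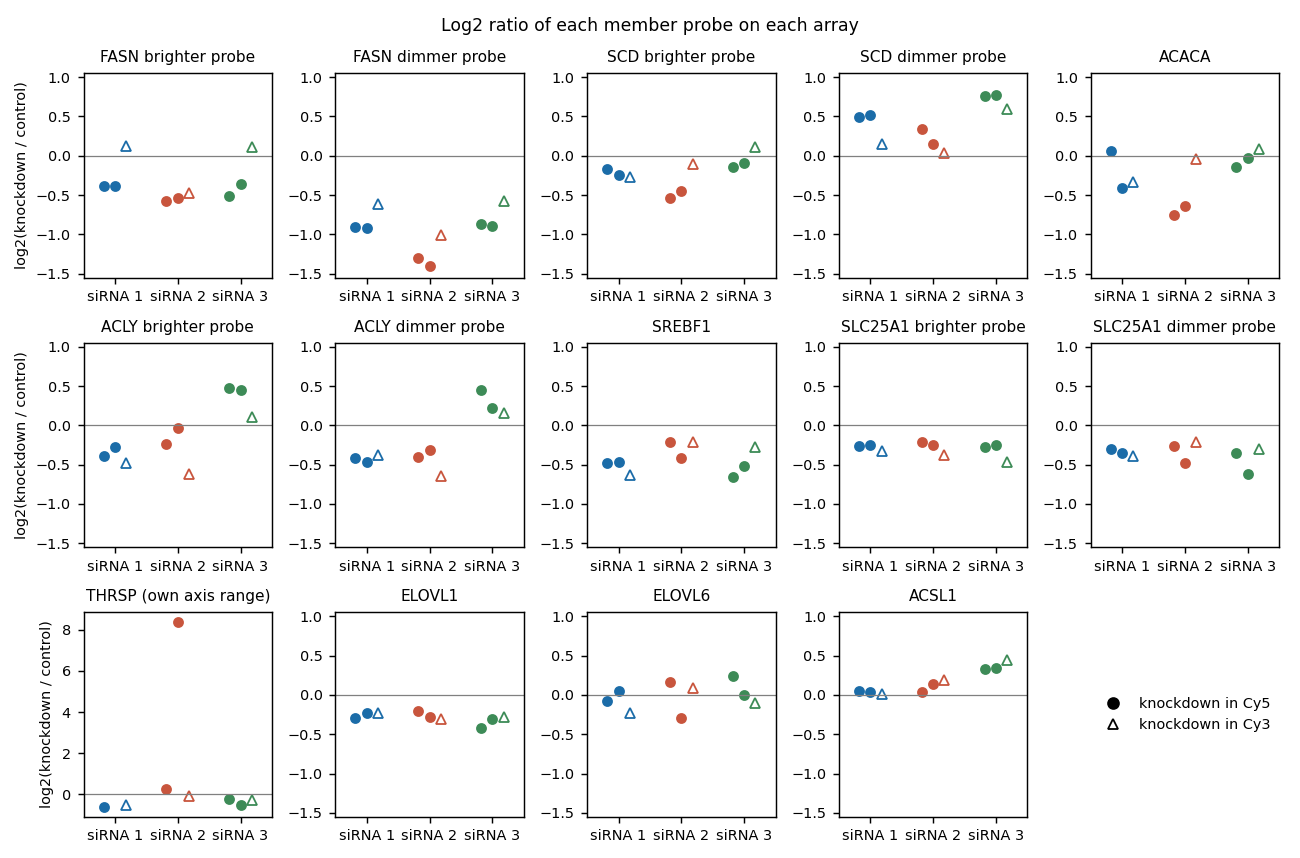
Log2 ratio of knockdown over control (vertical axis) for each of the 14 probes on each array, grouped by siRNA, with filled circles for the knockdown in Cy5 and open triangles for the knockdown in Cy3. FASN at its dimmer probe lies between -1.40 and -0.58 on all 9 arrays, SREBF1 between -0.66 and -0.21, and THRSP, on its own axis range, has 1 array at 8.40.

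SREBF1, the transcriptional regulator, was lower on every array. Its log2 ratios were -0.49, -0.46 and -0.63 on the arrays with siRNA 1, -0.21, -0.41 and -0.21 on those with siRNA 2, and -0.66, -0.52 and -0.28 on those with siRNA 3. The arrays of siRNA 2 all lay above those of siRNA 1 and overlapped with those of siRNA 3, and none reached 0. SREBF1 fell to 70.1% of control with siRNA 1 (log2 -0.51 ± 0.0820 SE, adjusted p = 0.00564) and to 72.2% with siRNA 3 (-0.47 ± 0.0820 SE, adjusted p = 0.00896). With siRNA 2 it stood at 83.2% of control, which was not called (-0.27 ± 0.0820 SE, adjusted p = 0.0646). Of the alternative settings given below, 5 called this value (adjusted p = 0.0232 to 0.0483) and 12 did not (adjusted p up to 0.267). The 12 include the setting with no filter, which repeats the same fit. The call for siRNA 1 was lost without its array 3 (-0.37, adjusted p = 0.0713), and that for siRNA 3 without its array 1 (-0.40, adjusted p = 0.0527). Across siRNAs SREBF1 had a log2 ratio of -0.42 ± 0.0827 SE (adjusted p = 0.0927), and the difference of siRNA 2 from siRNA 1 was 0.25 (adjusted p = 0.289).

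FASN, which carries out the synthesis of palmitate, had at its dimmer probe the lowest mean across siRNAs of the 14 probes. The knockdown intensities of that probe were 1306, 1013 and 722 on arrays 1 to 3 of siRNA 1, against control intensities of 1556, 1176 and 1587. They were 838, 803 and 580 with siRNA 2, against 1401, 1455 and 2085 in control, and 1099, 1275 and 767 with siRNA 3, against 1247, 1585 and 2212 in control. The knockdown channel was below the control channel on each array, before any normalisation. After loess, the knockdown level was 53.6%, 52.9% and 65.1% of control with siRNA 1, 40.5%, 37.9% and 49.7% with siRNA 2, and 54.8%, 53.8% and 67.1% with siRNA 3. The arrays of siRNA 2 were all below those of the other siRNAs.

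At this dimmer probe FASN fell to 59.0% of control with siRNA 1 (log2 -0.76 ± 0.0408 SE, adjusted p = 0.000211), to 44.0% with siRNA 2 (-1.19 ± 0.0408 SE, adjusted p = 0.000171) and to 60.4% with siRNA 3 (-0.73 ± 0.0408 SE, adjusted p = 0.00047). These calls held without any single array. Across siRNAs the log2 ratio was -0.89 ± 0.111 SE, or 53.9% of control, and only 0.0531% of all tested probes had a lower mean, while the adjusted p was 0.0822 with 3 values. It was 0.0494 without array 2 of siRNA 2.

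The brighter FASN probe showed a smaller shift, and 99.3% of tested probes were dimmer than it. Its intensities were 23109 to 48041 in the knockdown channel and 45737 to 52668 in the control channel. The brightest spots of the arrays reached 59904 to 64609 and 59090 to 64917 in these channels. Whether the brightness of this probe bears on the size of its shift was not tested. Where Cy5 marked the knockdown, its log2 ratio averaged -0.46 ± 0.0970 (SD, n = 6 arrays), and on the 3 with the knockdown in Cy3 it was 0.13, -0.48 and 0.11 for siRNA 1, 2 and 3. The dye orientation therefore moved with the value at this probe, with a dye term of -0.19 (adjusted p = 0.0292). It was called lower with siRNA 2 only (log2 -0.47 ± 0.0809 SE, adjusted p = 0.00948), with siRNA 1 at -0.15 (adjusted p = 0.258) and siRNA 3 at -0.19 (adjusted p = 0.157). The siRNA 2 value was -0.30 without its array 3 (adjusted p = 0.0483) and its call was lost after median centring (adjusted p = 0.0765). With Cy5 arrays only, the values with siRNA 1 and 3 were -0.38 and -0.44 and were called too (adjusted p = 0.0269 and 0.0273). That setting has no dye term, so these values still hold the dye effect of this probe. The dimmer probe was below the brighter on 9 of 9 arrays, by a mean of 0.61 log2 units ± 0.154 (SD).

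Both probes of SLC25A1, the mitochondrial citrate carrier, gave much the same picture as each other. At the brighter probe the log2 ratios were -0.26, -0.25 and -0.33 with siRNA 1, -0.22, -0.25 and -0.38 with siRNA 2, and -0.27, -0.25 and -0.46 with siRNA 3. At the dimmer probe they were -0.30, -0.36 and -0.40, then -0.27, -0.48 and -0.22, then -0.35, -0.62 and -0.31, in the same order of siRNAs. All values were below 0 and those of the 3 siRNAs overlapped. SLC25A1 fell to 80.9%, 81.0% and 78.3% of control at the brighter probe with siRNA 1, 2 and 3 (adjusted p = 0.00296, 0.00378 and 0.00233). At the dimmer probe it fell to 79.3%, 80.8% and 75.2% (adjusted p = 0.0216, 0.0328 and 0.0113). The brighter probe's calls held without any single array. Those of the dimmer probe did not: without 1 of its own arrays the adjusted p reached 0.223 with siRNA 1 (-0.24, without array 3), 0.104 with siRNA 2 (-0.35, without array 3) and 0.0666 with siRNA 3 (-0.46, without array 3). After median centring the siRNA 2 calls were lost at the brighter and the dimmer probe (adjusted p = 0.076 and 0.155), and the siRNA 1 values were -0.49 and -0.52, still called. Across siRNAs the probes had log2 ratios of -0.32 ± 0.0646 SE and -0.35 ± 0.0658 SE (adjusted p = 0.0935 and 0.0902).

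ELOVL1, the elongase of very long saturated chains, was lower by a similar amount on every array. Its log2 ratios were -0.29, -0.23 and -0.24 with siRNA 1, -0.21, -0.28 and -0.31 with siRNA 2, and -0.42, -0.31 and -0.28 with siRNA 3. The values of the 3 siRNAs overlapped and ran from -0.42 to -0.21. ELOVL1 fell to 84.1%, 83.2% and 79.3% of control with siRNA 1, 2 and 3 (adjusted p = 0.0116, 0.0111 and 0.00458), and across siRNAs its log2 ratio was -0.28 ± 0.0647 SE (adjusted p = 0.107). With siRNA 1 the adjusted p was 0.0978 without its array 3 and 0.0555 without its array 1, and with siRNA 2 it was 0.0956 without its array 3. After median centring the siRNA 2 call was lost (-0.25, adjusted p = 0.134) and the siRNA 1 value was -0.44, still called.

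**Figure D2:**
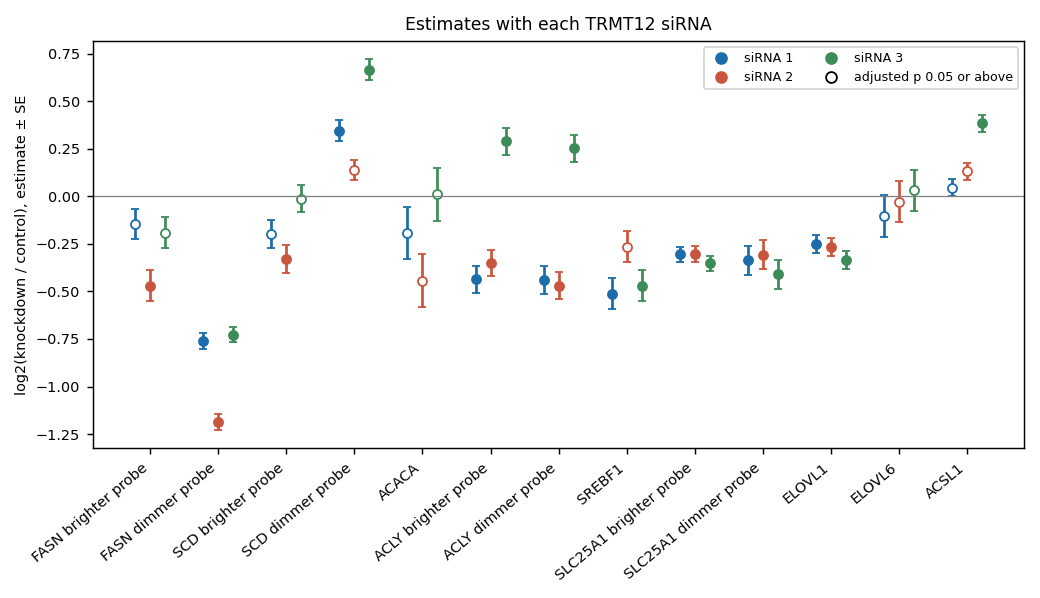
Estimated log2 ratio of knockdown over control (vertical axis) with each siRNA for 13 of the probes, with bars of 1 SE from limma and open circles where the adjusted p was 0.05 or above. THRSP is left out because its SE was 1.59 or more. FASN at its dimmer probe, both SLC25A1 probes and ELOVL1 are below 0 and filled for all 3 siRNAs, while ACLY lies below 0 for siRNA 1 and 2 and above 0 for siRNA 3.

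ACLY, which makes cytosolic acetyl-CoA, went in opposite directions with different siRNAs at both of its probes. At the brighter probe the log2 ratios were -0.40, -0.27 and -0.48 with siRNA 1, -0.23, -0.03 and -0.62 with siRNA 2, and 0.48, 0.45 and 0.10 with siRNA 3. At the dimmer probe they were -0.42, -0.47 and -0.37 with siRNA 1, -0.40, -0.31 and -0.64 with siRNA 2, and 0.45, 0.23 and 0.16 with siRNA 3. The values of siRNA 3 did not overlap with those of the other siRNAs at either probe. At the brighter probe ACLY fell to 73.9% of control with siRNA 1 and 78.5% with siRNA 2 (adjusted p = 0.00554 and 0.0157), and rose to 122% with siRNA 3 (adjusted p = 0.0288). At the dimmer probe it fell to 73.7% with siRNA 1 and 72.2% with siRNA 2 (adjusted p = 0.00594 and 0.0059), and rose to 119% with siRNA 3 (adjusted p = 0.0497).

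The rises with siRNA 3 were the weaker side of this contrast. They were lost without any 1 of the 3 arrays of siRNA 3, with adjusted p between 0.0867 and 0.216 over both probes. Median centring also lost them, with log2 ratios of 0.16 and 0.11 (adjusted p = 0.391 and 0.609). So did the authors' calibrated ratios (adjusted p = 0.2 and 0.351) and scaling between arrays (adjusted p = 0.0671 and 0.111). Over all alternatives the brighter probe lost this call in 7 and kept it in 10, and the dimmer probe lost it in 12 and kept it in 5. The alternative with no filter is among those that kept it, and it repeats the same fit, with 5656 probes called either way. At the brighter probe the fall with siRNA 2 was lost without its array 1 (-0.33, adjusted p = 0.0631) or array 3 (-0.26, adjusted p = 0.123), and at the dimmer probe without its array 3 (-0.38, adjusted p = 0.0564). At the brighter probe it was also lost after median centring (-0.32, adjusted p = 0.101) and with Cy5 arrays only (-0.13, adjusted p = 0.245). The difference itself was tested. For siRNA 3 minus siRNA 1 it was 0.73 ± 0.0963 SE at the brighter and 0.69 ± 0.0989 SE at the dimmer probe (adjusted p = 0.0104 and 0.012). For siRNA 3 minus siRNA 2 it was 0.64 ± 0.0963 SE and 0.72 ± 0.0989 SE (adjusted p = 0.013 and 0.0101). Without array 1 of siRNA 3 these had adjusted p of 0.0553 and 0.0557 against siRNA 1, and 0.063 at the brighter probe against siRNA 2. Leaving out array 2 of siRNA 3 gave 0.0553 at the brighter probe against siRNA 2, and leaving out array 2 of siRNA 1 or array 3 of siRNA 3 gave 0.0548 and 0.0514 at the dimmer probe against siRNA 1. The dye term was 0.17 at the brighter probe (adjusted p = 0.0277) and 0.07 at the dimmer (adjusted p = 0.279).

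Over the 14 probes, the difference of siRNA 2 minus siRNA 1 was called for 1, where 2.57% of all tested probes were called. The difference of siRNA 3 minus siRNA 1 was called for 4, all higher with siRNA 3, where 9.23% of all were called. That of siRNA 3 minus siRNA 2 was likewise called for 4, all higher with siRNA 3, where 10.2% of all were called. These contrasts share the arrays of an siRNA, and may share control RNA, so they are not independent of each other. They concerned the dimmer FASN probe, the dimmer SCD probe, both ACLY probes and, against siRNA 1 alone, ACSL1. At the dimmer FASN probe siRNA 2 minus siRNA 1 was -0.43 ± 0.0565 SE (adjusted p = 0.0222), and siRNA 3 minus siRNA 2 was 0.46 ± 0.0565 SE (adjusted p = 0.00816). The first of these stayed under 0.05 without array 2 of siRNA 2 and was at 0.0503 to 0.116 without any other single array. After median centring no member probe was called in any of the 3 differences.

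SCD, the desaturase, was the gene whose probes disagreed in sign. The brighter probe had log2 ratios of -0.17, -0.25 and -0.27 with siRNA 1, -0.53, -0.45 and -0.10 with siRNA 2, and -0.15, -0.09 and 0.11 with siRNA 3. The dimmer probe had 0.49, 0.52 and 0.15 with siRNA 1, 0.34, 0.16 and 0.04 with siRNA 2, and 0.76, 0.77 and 0.59 with siRNA 3. The dimmer probe was above the brighter on 9 of 9 arrays, by a mean of 0.64 log2 units ± 0.254 (SD). The brighter probe was called lower with siRNA 2 (79.5% of control, adjusted p = 0.0222), a call lost without its array 1 (-0.28, adjusted p = 0.0829) or its array 2 (-0.32, adjusted p = 0.0571), and after median centring (-0.35, adjusted p = 0.0763). The dimmer probe was called higher with siRNA 1 (127% of control, adjusted p = 0.00524) and with siRNA 3 (159%, adjusted p = 0.00103), and stood at 110% with siRNA 2 (adjusted p = 0.12). The call with siRNA 1 was lost after median centring (0.26, adjusted p = 0.0676). Its difference of siRNA 3 minus siRNA 2 was 0.53 ± 0.0750 SE (adjusted p = 0.011, and 0.0527 without array 1 of siRNA 3), and that of siRNA 3 minus siRNA 1 was 0.32 ± 0.0750 SE (adjusted p = 0.0459, and 0.0514 to 0.158 without any single array other than array 2 of siRNA 2). The array files give a RefSeq transcript for the brighter probe and none for the dimmer, which the platform annotation assigns to SCD, so no direction is given here for SCD as a gene.

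**Figure D3:**
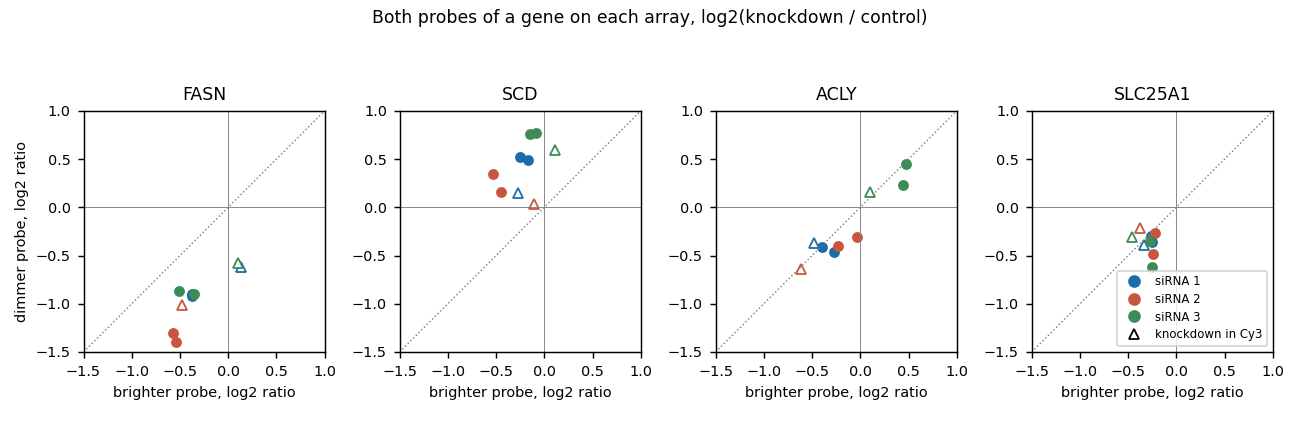
Log2 ratio of knockdown over control at the brighter probe (horizontal axis) against the dimmer probe (vertical axis) of FASN, SCD, ACLY and SLC25A1, 1 point for each array, with the dotted line where both are equal. All 9 FASN points lie below the line and all 9 SCD points above it, while the ACLY and SLC25A1 points lie within 0.37 log2 units of it.

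ACSL1, which activates long-chain fatty acids, was above control on all 9 arrays at its only probe. Its log2 ratios were 0.06, 0.04 and 0.01 with siRNA 1, 0.04, 0.13 and 0.19 with siRNA 2, and 0.33, 0.35 and 0.45 with siRNA 3. The arrays of siRNA 3 were all above those of the other siRNAs. ACSL1 rose to 130% of control with siRNA 3 (log2 0.38 ± 0.0461 SE, adjusted p = 0.00261), a call lost after median centring (0.23, adjusted p = 0.132), and stood at 103% and 110% with siRNA 1 and 2 (adjusted p = 0.561 and 0.0909). The difference of siRNA 3 minus siRNA 1 was 0.34 ± 0.0639 SE (adjusted p = 0.025), and without any 1 array of either siRNA its adjusted p was 0.0641 to 0.0961. Against siRNA 2 the difference was 0.25 ± 0.0639 SE (adjusted p = 0.0552).

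ACACA, ELOVL6 and THRSP gave no call with any siRNA when all arrays and all tested probes were used. ACACA, the carboxylase that makes malonyl-CoA, was dim, with knockdown intensities of 66.3 to 311.5 and control intensities of 99.9 to 362.9. Its log2 ratios were 0.06, -0.42 and -0.33 with siRNA 1, -0.75, -0.64 and -0.05 with siRNA 2, and -0.14, -0.03 and 0.09 with siRNA 3, so that the siRNAs overlapped. The estimate with siRNA 2 was -0.44 ± 0.138 SE (adjusted p = 0.066). This value was called without its array 3 (-0.69, adjusted p = 0.0382) and without array 1 of siRNA 1 (-0.43, adjusted p = 0.0333). It was also called with signal required in both channels on all arrays (-0.44, adjusted p = 0.0314) and with Cy5 arrays only (-0.70, adjusted p = 0.026). All of these settings keep array 1 of siRNA 2, where the ACACA spot had a quality of 0 on a scale from 0 to 1. The other 13 alternatives did not call this value. ELOVL6, which extends palmitate, ranged from -0.29 to 0.24 over the 9 arrays and averaged -0.03 ± 0.0693 SE across siRNAs (adjusted p = 0.798). THRSP was dimmer still, had no ratio on array 2 of siRNA 1, and had a control intensity of 3.3 on array 2 of siRNA 2, which gave the log2 ratio of 8.40. On the other 7 arrays its log2 ratios lay between -0.65 and 0.24. The fitted mean across siRNAs was 0.40 ± 0.545 SE with that array and -0.29 without it (adjusted p = 0.692 and 0.243). Without it THRSP was called lower with siRNA 1, on the 2 arrays of that siRNA with a ratio (-0.59, adjusted p = 0.0174).

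The dye term was called for 4 of the 14 probes, both FASN probes, the dimmer SCD probe and the brighter ACLY probe, where 29.2% of all tested probes were called. It was -0.16 at the dimmer FASN probe (adjusted p = 0.00628) and 0.12 at the dimmer SCD probe (adjusted p = 0.0314). The estimates given with each siRNA are adjusted for it, except those with Cy5 arrays only.

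The wider lipid machinery was read from 9 further lists of 117 genes, of which 100 had a tested probe. Taking the brightest probe of each gene, 8 of the 100 were called lower and 4 higher with each of the 3 siRNAs, against 3.36% and 3.2% of all 14180 named genes. The median log2 ratio of the 100 across siRNAs was -0.04, and that of all named genes was -0.01. Of 9 tested genes that supply acetyl-CoA and NADPH, none was called in 1 direction with all 3 siRNAs. The highest of them was the brightest probe of IDH1, an NADPH-yielding isocitrate dehydrogenase, with log2 ratios of 0.06, 0.10 and 0.36 with siRNA 1, 2 and 3, and its other 3 probes averaged -0.06 to 0.07.

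Of 10 tested genes that process SREBP or hold it in the endoplasmic reticulum, 1 was called lower and 2 higher with every siRNA. SCAP, the escort that carries SREBP to the Golgi, had log2 ratios of -0.63, -0.73 and -0.33 with siRNA 1, 2 and 3 (adjusted p = 0.00121, 0.000984 and 0.0149). It was lower on all 9 arrays at that probe, while a much dimmer SCAP probe averaged 0.26 across siRNAs (adjusted p = 0.287). INSIG2, which retains the SCAP complex in the endoplasmic reticulum, had 0.33, 0.21 and 0.40 (adjusted p = 0.00464, 0.0292 and 0.00294) and was higher on all 9 arrays, also at its dimmer probe. After median centring the INSIG2 calls were lost with all 3 siRNAs (adjusted p = 0.221, 0.24 and 0.125). SEC24D, a cargo adaptor of the vesicles that leave the endoplasmic reticulum, had 0.94, 0.35 and 0.62 and was higher on all 9 arrays. Named after its values were seen, SREBF2, the paralogue of SREBF1 that chiefly serves cholesterol synthesis, had -0.29, -0.23 and 0.07, called lower with siRNA 1 and 2.

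Among 15 tested lipogenic transcription factors and cofactors, RXRA and PPARGC1B were called lower with each siRNA. RXRA, the shared partner of several lipid-sensing nuclear receptors, had log2 ratios of -0.46, -0.27 and -0.41 at its brightest probe and -0.50, -0.48 and -0.23 at another, while a dimmer one averaged -0.01. PPARGC1B, a coactivator that works with SREBP proteins, had -0.48, -0.31 and -0.39. Both genes were lower on all 9 arrays at the brightest probe. Of the 12 tested other fatty acid chain enzymes, MCAT, the malonyl transferase of mitochondrial fatty acid synthesis, was called lower with each siRNA at -0.47, -0.27 and -0.69. Of the 8 other acyl-CoA synthetases, SLC27A4, a fatty acid transport protein with synthetase activity, was called lower at -0.41, -0.43 and -0.21, and its other 2 probes were also lower on all 9 arrays.

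Downstream of acyl-CoA, GPAT4, which starts glycerolipid assembly, was the only 1 of 11 genes of its list called in a single direction with each siRNA, at -0.34, -0.26 and -0.39. MGLL, the monoacylglycerol lipase, was the only 1 of 8 lipid droplet and handling genes, at -0.24, -0.22 and -0.43. Of 13 kinases upstream of lipogenesis, AKT2 alone was called lower with each at its brightest probe, at -0.18, -0.22 and -0.17. Each of these calls was lost without any 1 array of its own siRNA, save siRNA 2 without its array 2. The dimmer AKT2 probes averaged -0.12 and 0.02 across siRNAs, the first called lower with siRNA 1 only and the second with no siRNA. The fatty acid oxidation list went both ways. Its median log2 ratio across siRNAs was -0.105, with 9 genes below control and 5 above. Of its 14 tested genes, those called higher and lower numbered 2 and 3 with siRNA 1, 2 and 2 with siRNA 2, and 3 and 4 with siRNA 3. Of all named genes, 11.8% and 14.3% were called higher and lower with siRNA 1, 9.47% and 12.9% with siRNA 2, and 12.4% and 11.5% with siRNA 3. In this list CPT1A, which admits long-chain fatty acids to mitochondria, was called higher with each siRNA. It stood at 0.71, 0.52 and 0.61 (adjusted p = 0.000642, 0.00234 and 0.00162), and these calls held without any single array. ACADM, the medium-chain dehydrogenase, was called higher at 0.28, 0.45 and 0.28, but with siRNA 1 and siRNA 3 the call was lost without any 1 of their arrays (adjusted p = 0.0741 to 0.201) and after median centring (0.10 and 0.13, adjusted p = 0.515 and 0.418). Of the 12 genes called in 1 direction with all 3 siRNAs, CPT1A and SEC24D kept all 3 calls whichever array was left out. Each of the other 10 lost at least 1 call, SCAP that with siRNA 3 without any 1 of its arrays (adjusted p = 0.0588 to 0.0858), and the PPARGC1B value with siRNA 1 was -0.32 without its array 3 (adjusted p = 0.0466). After median centring, SCAP, SLC27A4 and CPT1A kept all 3 calls. The siRNA 2 calls were then lost for SEC24D, MCAT, GPAT4, RXRA, PPARGC1B, MGLL and AKT2 (adjusted p = 0.056 to 0.191), beside those of INSIG2 and ACADM given above and that of AKT2 with siRNA 3 (adjusted p = 0.0571).

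**Figure D4:**
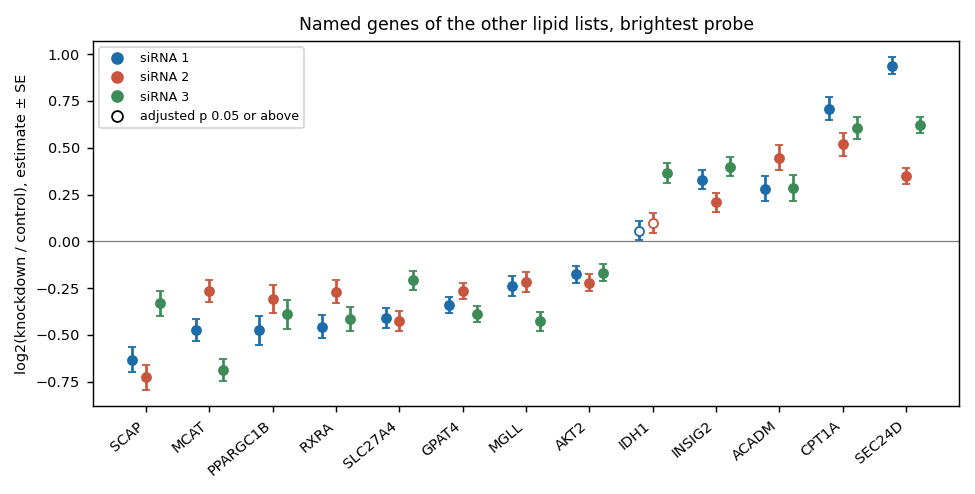
Estimated log2 ratio of knockdown over control (vertical axis) with each siRNA at the brightest probe of 13 genes of the other lipid lists, ordered by their mean, with bars of 1 SE from limma and open circles where the adjusted p was 0.05 or above. SCAP lies lowest of these at -0.73 with siRNA 2, and SEC24D and CPT1A lie highest.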

How the data were processed

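Spotted oligonucleotide arrays were used with RNA amplified by in vitro transcription, per the labels' protocols. Per the file headers, the authors deposited spot intensities of both channels with local background removed (floor 1), a calibrated ratio, and a spot quality given as a fraction from 0 to 1. The sources used here do not name the image program or the genome build. A deposited log2 table equalled, within 0.001, log2 of the calibrated ratio on the Cy5 arrays and minus it on the dye-swapped arrays. Its column medians were -0.0578, -0.1031 and -0.1539 on the arrays with siRNA 1, -0.2576, -0.2065 and -0.0438 on those with siRNA 2, and -0.1027, 0.0421 and -0.0467 on those with siRNA 3, so it was not centred. The series text says that the channels of the dye-swapped arrays were already exchanged, and read that way TRMT12 was lower on all 9 arrays.

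Ratios were knockdown over control where both channels were above the floor, and 2.57% to 24.4% of probes on an array had none. The deposited intensities were already corrected for background, so no further correction was made. Log2 ratios were normalised within arrays by loess in limma 3.58.1 (R 4.3.3). A probe was tested if its signal exceeded 2 background standard deviations in a channel on at least 6 arrays and both dye orientations of each siRNA gave a ratio. Across siRNAs, limma tested 3 dye-balanced values against 0, where an exact sign-flip test cannot go below p = 0.25. For single siRNAs and their differences, limma fitted all 9 arrays with a mean for each siRNA and a dye term, coded as plus and minus 1. P-values were Benjamini-Hochberg adjusted over all 28259 tested probes. The number of arrays limits the precision. The fitting code was also run on simulated data in which the siRNAs differed little. That run checks the code and does not bear on the differences between siRNAs seen here.

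Names came from the platform annotation, updated through RefSeq's human gene table. Of 35328 probes 1025 matched several genes and 10243 had no name here, and neither kind was used by name. The member genes, the other lists and the markers were chosen with earlier results of these data known. Named were every member probe, TRMT12, and of each lipid list the genes called in 1 direction with all 3 siRNAs at their brightest probe, or else its highest and lowest; 1 gene of this rule is not reported here. Alternatives were normexp, median centring, the authors' calibrated ratios, scaling between arrays, both channels detected on all arrays, no filter, low-quality spots left out, Cy5 arrays only, the siRNA as a random block, and each array left out. With no filter, the calls over all probes numbered the same as with it in every comparison. That alternative therefore repeats the results above and adds to the counts of unchanged values.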

Additional observations from a re-analysis of the deposited data

Results flagged for a closer look

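Differences between siRNAs under the same contrast were called at 9 points among the member probes, each by limma's test of the difference itself over all tested probes. At the dimmer FASN probe siRNA 2 minus siRNA 1 was -0.425 and siRNA 3 minus siRNA 2 was 0.458 in log2 units (adjusted p = 0.0222 and 0.00816). At the dimmer SCD probe siRNA 3 minus siRNA 1 was 0.321 and siRNA 3 minus siRNA 2 was 0.529 (adjusted p = 0.0459 and 0.011). At the brighter ACLY probe they were 0.725 and 0.638 (adjusted p = 0.0104 and 0.013), and at the dimmer ACLY probe 0.693 and 0.724 (adjusted p = 0.012 and 0.0101). For ACSL1 siRNA 3 minus siRNA 1 was 0.338 (adjusted p = 0.025). TRMT12 itself stood at 16.3%, 17.6% and 18.1% of control with siRNA 1, 2 and 3, and its difference of siRNA 3 minus siRNA 1 was not called (0.16, adjusted p = 0.329).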

How the results depend on the processing

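No paired analysis was possible because the array numbers only follow the order of deposit. Across siRNAs the number of member probes called, 0 of 14 in limma, was 5 with low-quality spots left out, 4 with normexp, 6 with the siRNA as a random block (correlation 0.336), 5 with signal required in both channels on all arrays, and 0 to 1 with each array left out. Over all probes the calls numbered 1 there, and 1528, 1105, 3826, 1589 and 0 to 407 in those settings. With siRNA 2 the 8 member calls became 5 with the authors' calibrated ratios and 2 with median centring, and 5 to 9 with each array left out; over all probes 5714 became 3719 and 2210. With each array left out, the 8 calls with siRNA 1 ranged from 5 to 9. The 9 calls with siRNA 3 became 6 with median centring, 7 with calibrated ratios or scaling between arrays, and 6 to 9 with each array left out. They were 6 without any 1 array of siRNA 3, 4 lower and 2 higher. For siRNA 2 minus siRNA 1 the 1 call became 0 with Cy5 arrays only, calibrated ratios, median centring or scaling between arrays, and 0 to 1 with each array left out. For siRNA 3 minus siRNA 1 the 4 calls became 0 with Cy5 arrays only or median centring, 2 with calibrated ratios, and 0 to 4 with each array left out. For siRNA 3 minus siRNA 2 the 4 calls became 0 with Cy5 arrays only or median centring and 2 to 4 with each array left out. With median centring 67 and 61 of all probes were called for the last 2 differences, against 2608 and 2873.

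Signs turned only for values near 0 or not called. With each array left out, ACACA ranged from -0.374 to 0.029 with siRNA 1 and from -0.027 to 0.041 with siRNA 3, where it was -0.085 with Cy5 arrays only and -0.009 with low-quality spots left out. ELOVL6 ranged from -0.072 to 0.005 across siRNAs, -0.175 to 0.129 with siRNA 2 and -0.049 to 0.106 with siRNA 3 in the same way. It was 0.015 across siRNAs with Cy5 arrays only, 0.001 with siRNA 2 after scaling, and -0.054 and -0.094 with siRNA 3 with calibrated ratios and median centring. ACSL1 with siRNA 1 was -0.090 with calibrated ratios and -0.140 with median centring, and IDH1 was -0.063 and -0.113. SCD at its brighter probe with siRNA 3 ranged from -0.036 to 0.009, and THRSP across siRNAs from -0.285 to 1.134, with each array left out, and THRSP was -0.088 with normexp. The setting with no filter repeats the same fit, so all its values count as kept. Over all single values and alternatives, 1846 kept their direction and side of the threshold, 201 lost a call, 73 gained one and 22 changed sign. The cause of these changes was not tested. Low signal limits what can be said of ACACA and THRSP. Whether the high signal of the brighter FASN probe affected its ratios was not tested.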
